A study of Homo sapiens with 16 samples.

Results

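The ERBB and IGF growth factor receptors and their closest partners were followed in LNCaP, an established line of prostate cancer cells that responds to androgen. The 10 genes were chosen by name from the 60642 gene symbols of the deposited table. They are the receptors EGFR, ERBB2, ERBB3, ERBB4, IGF1R and INSR, the receptor adaptors IRS1 and IRS2, and the secreted IGF carriers IGFBP3 and IGFBP5. All 10 were present in the table, and 7 of them passed the filter on low values that decided which genes were tested.

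All cells were grown for 72 h in serum and then depleted of androgen for 48 h in 5% serum stripped with charcoal, so the controls were androgen-depleted too. For the last 48 h they received 10 nM dihydrotestosterone (DHT), the most potent natural androgen, or none, and an antiandrogen at 10 µM, or none. The antiandrogens were bicalutamide (abbreviated BIC), enzalutamide (ENZ) and apalutamide (APA). These 3 compounds compete with androgen for the ligand pocket of the androgen receptor and are called antagonists here. The 8 groups were VEH (vehicle control), DHT, BIC.VEH, ENZ.VEH, APA.VEH, BIC.DHT, ENZ.DHT and APA.DHT, each with 2 libraries labelled as biological replicates, which gave 16 libraries. The labels do not say that the replicates came from separate cultures, so p-values measure the spread between these libraries only. Everything came from 1 cell line, so the values describe that line under depletion and not prostate tissue.

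ERBB receptors are tyrosine kinases at the cell surface that pair with each other after a ligand of the EGF or neuregulin family binds. ERBB2 has no known ligand of its own and ERBB3 has little kinase activity, so this pair signals as a partnership, largely through PI3 kinase. IGF1R and INSR, the insulin receptor, are close relatives that recruit IRS adaptors, and IGFBP3 and IGFBP5 bind IGF outside the cell and limit its access to IGF1R.

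The annotated promoters of the genes that the results turn on are printed here from RefSeq (GRCh38.p14), as the 250 bases before the annotated start on the strand of the gene. They let the reader compare IGF1R with INSR, its close relative, and IGFBP3 with KLK3, the androgen-induced prostate-specific antigen gene. Capitals mark matches to 5 short motifs searched on both strands, which were the androgen receptor half-site AGAACA, the GC box GGGCGG, the TATA box TATAAA, the forkhead site TGTTTAC and the E-box CACGTG.
IGF1R (chr15:98648289-98648538, plus strand): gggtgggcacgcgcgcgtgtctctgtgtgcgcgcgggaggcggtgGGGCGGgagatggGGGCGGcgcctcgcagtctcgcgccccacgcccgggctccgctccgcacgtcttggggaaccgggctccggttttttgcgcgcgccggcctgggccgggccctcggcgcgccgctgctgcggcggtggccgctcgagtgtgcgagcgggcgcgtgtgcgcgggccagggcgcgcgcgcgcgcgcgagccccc
INSR (chr19:7294415-7294664, minus strand): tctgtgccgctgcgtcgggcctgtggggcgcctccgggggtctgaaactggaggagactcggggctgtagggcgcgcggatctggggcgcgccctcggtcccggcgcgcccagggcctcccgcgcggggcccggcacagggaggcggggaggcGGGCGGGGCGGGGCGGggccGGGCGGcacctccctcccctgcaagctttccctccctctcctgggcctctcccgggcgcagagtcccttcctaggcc
IGFBP3 (chr7:45921273-45921522, minus strand): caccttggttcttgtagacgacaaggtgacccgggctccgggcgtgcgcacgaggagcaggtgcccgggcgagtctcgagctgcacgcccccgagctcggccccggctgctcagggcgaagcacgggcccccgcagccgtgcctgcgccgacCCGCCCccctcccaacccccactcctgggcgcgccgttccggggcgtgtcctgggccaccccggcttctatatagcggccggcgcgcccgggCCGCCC
KLK3 (chr19:50854665-50854914, plus strand): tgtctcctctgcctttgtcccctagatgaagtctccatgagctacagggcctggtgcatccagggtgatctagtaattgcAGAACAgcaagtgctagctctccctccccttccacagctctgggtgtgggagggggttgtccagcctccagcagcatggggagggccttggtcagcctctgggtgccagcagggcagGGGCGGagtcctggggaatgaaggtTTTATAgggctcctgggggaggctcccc
A promoter was found for 9 of the 10 members, all but ERBB3. The GC box was found in 42.6% of 35116 RefSeq promoters of this length, and it was found 2 times each in the IGF1R and IGFBP3 windows and 4 times in the INSR window, where 3 of the matches overlap. The half-site was found in 12.4% of all promoters. It was found in the KLK3 window, 170 bases before the start, and among the members only in that of ERBB4. The TATA box was found in 10.7% of promoters, the forkhead site in 2.98% and the E-box in 6.34%. GC content was 81.2% for IGF1R, 78.4% for INSR and 76.0% for IGFBP3, above the median of 58.0% over all promoters. These matches are a description of letters in a short window, and a missing match says nothing of elements elsewhere.

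ENZ.DHT and APA.DHT had the least similar replicates. Their Pearson correlation over tested genes was 0.964, against 0.974 to 0.982 in the other groups, and 5.71% and 6.17% of genes differed over 2-fold between replicates, against 2.45% to 3.97%. For IGF1R, IGFBP3, EGFR and ERBB3, the differences of these groups from DHT are therefore also given without replicate 1 of each. A fit that leaves out a library leaves its group with 1, which is then assumed to vary like the other groups. Mitochondrial genes held 19.2% to 22.3% of the TPM in replicate 1 of the 4 groups with DHT and 14.7% to 17.8% in the other 12 libraries, and whether this had a part in the member values was not tested. Luminal markers were well detected, with 8 of 8 at a TPM of 1 or more in all libraries. Of 3 basal markers 0 reached a TPM of 1 in all libraries, with KRT5 and TP63 near 0. KRT14 moved with DHT, at 1.68 and 1.59 TPM in DHT, 0.03 and 0.05 TPM in VEH and at most 0.68 TPM elsewhere. The fibroblast markers reached it through COL1A1 alone, 1 of 5. The immune and endothelial markers summed to between 1.82 and 12.8 TPM. CD68 ran from 0.92 to 12.1 TPM, higher in replicate 1 in every group, VWF ran from 0.61 to 1.90 TPM, and PTPRC and PECAM1 were near 0. The androgen control gene KLK3 stood at 53.0 and 24.0 TPM in VEH and at 4102 and 2422 TPM in DHT. FKBP5, which encodes a chaperone partner of steroid receptors, rose with DHT by 2.68 (SE 0.24, limma adjusted p = 7.40e-05) on the log2 scale.

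TPM is scaled for transcript length, so levels can be set side by side. Across the 16 libraries, IGFBP3 had the highest median, at 324.7 TPM, with a range from 110.9 to 472. ERBB2 (83.0 to 165) and ERBB3 (101 to 147) came next, with ranges that overlap each other and, through the DHT libraries alone, that of IGFBP3. EGFR (4.75 to 13.5), INSR (4.10 to 8.19) and IGF1R (2.15 to 16.9) lay below these, and their ranges overlap as well. IRS1 ran from 0.45 to 1.85, and IRS2 from 0.19 to 0.68. ERBB4 never exceeded 0.39 and IGFBP5 never exceeded 0.59, with IGFBP5 listed at 0 in DHT replicate 2. The receptor RNA of the ERBB family was therefore mostly ERBB2 and ERBB3.

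**Figure D1:**
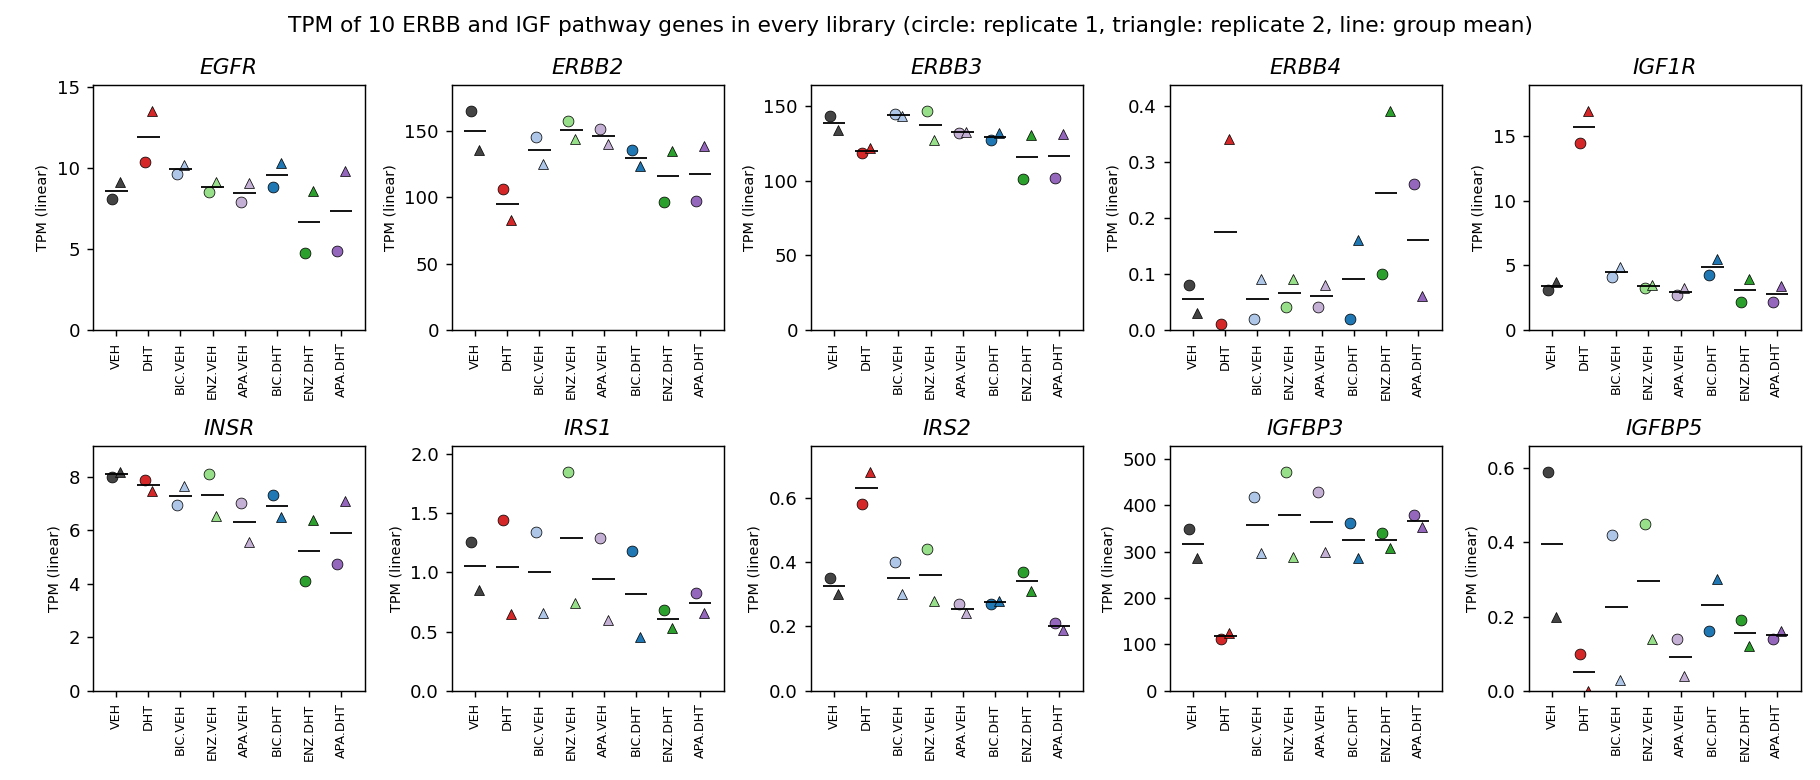
TPM on linear axes for each of the 10 genes in the 8 groups, with a circle for replicate 1, a triangle for replicate 2 and a line for the mean of 2. The DHT libraries are the highest for IGF1R (14.5 and 16.9) and the lowest for IGFBP3 (111 and 124), and ERBB4, IRS2 and IGFBP5 stay below 1 in all libraries.

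DHT raised IGF1R and lowered IGFBP3, and these were the members called between DHT and VEH. Of the 7 tested members, 1 was called higher and 1 lower, and 10.3% of all tested genes were called in that comparison. The values below are TPM per library, with a call at a Benjamini-Hochberg adjusted p under 0.05 in limma's moderated test of log2(TPM + 1), a scale that understates changes of low values. The median log2 difference over all tested genes was -0.098, and over the 7 members it was -0.066. The 4 comparisons with the DHT group share its 2 libraries. In bulk RNA, fewer cells of a type and less RNA per cell cannot be told apart.

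IGF1R, the receptor for IGF1 and IGF2, is at GRCh38.p14 chr15:98648539-98964530. It stood at 3.11 and 3.73 TPM in VEH and at 14.5 and 16.9 TPM in DHT. Both DHT libraries were higher than every other library, of which the next was 5.50 in BIC.DHT replicate 2. The mean rose from 3.42 ± 0.44 to 15.7 ± 1.7 TPM (SD, n = 2 each), which is 4.59-fold. On the log2 scale the rise was 1.92 (SE 0.24, limma adjusted p = 0.000658). The fold was 4.66 in replicate 1 and 4.54 in replicate 2, and leaving out any single library gave rises between 1.81 and 2.02, all called. IRAIN, a gene that overlaps IGF1R in the annotation, never exceeded 0.28 TPM.

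The 3 antagonists each brought IGF1R down again from its level with DHT. IGF1R stood at 4.22 and 5.50 TPM in BIC.DHT, at 2.15 and 3.96 TPM in ENZ.DHT and at 2.17 and 3.42 TPM in APA.DHT. All 6 libraries were below both DHT libraries. IGF1R fell by 1.52 (SE 0.24, limma adjusted p = 0.00630) with bicalutamide, by 2.08 (SE 0.24, adjusted p = 0.000447) with enzalutamide and by 2.15 (SE 0.24, adjusted p = 0.000343) with apalutamide. The percent of tested genes called was 3.13, 9.65 and 8.36 in these 3 comparisons, and 2 of 7 members were called in each. The bicalutamide call was lost without DHT replicate 2 (adjusted p = 0.0687) and without BIC.DHT replicate 1 (adjusted p = 0.0829). Without replicate 1 of ENZ.DHT and APA.DHT, the differences of IGF1R were -1.75 and -1.91 (adjusted p = 0.00230 and 0.00135), with 1 library left in each antagonist arm.

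IGF1R was higher than INSR in the 2 DHT libraries and lower in the other 14. Their ratio was 1.83 and 2.26 in DHT, 0.388 and 0.455 in VEH, and no higher than 0.846, in BIC.DHT replicate 2, elsewhere. INSR stood at 8.01 and 8.19 TPM in VEH and at 7.90 and 7.49 TPM in DHT. The difference of INSR was -0.07 (SE 0.21, adjusted p = 0.891), with a 95% interval from -0.54 to 0.41, and it turned to 0.04 under another scaling of the libraries. With an antagonist and DHT, INSR ran from 4.10 to 7.34 TPM, and no comparison called it. Its differences from DHT were -0.14 with bicalutamide, -0.50 with enzalutamide and -0.35 with apalutamide (limma adjusted p = 0.839, 0.166 and 0.340). The 95% interval with enzalutamide was -0.97 to -0.03, and the ENZ.DHT libraries stood at 4.10 and 6.38 TPM.

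IGFBP3, the main circulating carrier of IGF, is at GRCh38.p14 chr7:45912245-45921272 and overlaps no other annotated gene. It stood at 348 and 287 TPM in VEH and at 111 and 124 TPM in DHT, while the other 12 libraries ran from 287.5 to 472 TPM. The mean fell from 317.6 ± 43.1 to 117.5 ± 9.4 TPM (SD, n = 2 each), which is 2.70-fold lower. IGFBP3 fell by 1.42 on the log2 scale (SE 0.25, limma adjusted p = 0.00510). Without VEH replicate 1 the fall was 1.28 and missed the threshold (adjusted p = 0.0541). By replicate number, it was 3.14-fold lower in replicate 1 and 2.31-fold lower in replicate 2.

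Each antagonist raised IGFBP3 from its level with DHT. It stood at 362 and 287.5 TPM in BIC.DHT, at 341 and 308 TPM in ENZ.DHT and at 379 and 353 TPM in APA.DHT, and each of these 6 values was over both DHT libraries. IGFBP3 rose by 1.45 (SE 0.25, limma adjusted p = 0.0115) with bicalutamide, by 1.46 (SE 0.25, adjusted p = 0.00526) with enzalutamide and by 1.63 (SE 0.25, adjusted p = 0.00293) with apalutamide. The bicalutamide call was lost when any 1 of its 4 libraries was left out: the adjusted p was 0.0865 and 0.0664 without DHT replicates 1 and 2, and 0.124 and 0.0518 without BIC.DHT replicates 1 and 2. The IGF1R and IGFBP3 calls of all 3 antagonists were lost when only the compared groups were fitted (adjusted p from 0.0841 to 0.135), a fit with 2 libraries a group. Without replicate 1 of ENZ.DHT and APA.DHT, the differences were 1.39 and 1.58 (adjusted p = 0.04995 and 0.0273), the first just inside the threshold, again with 1 library in each antagonist arm.

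**Figure D2:**
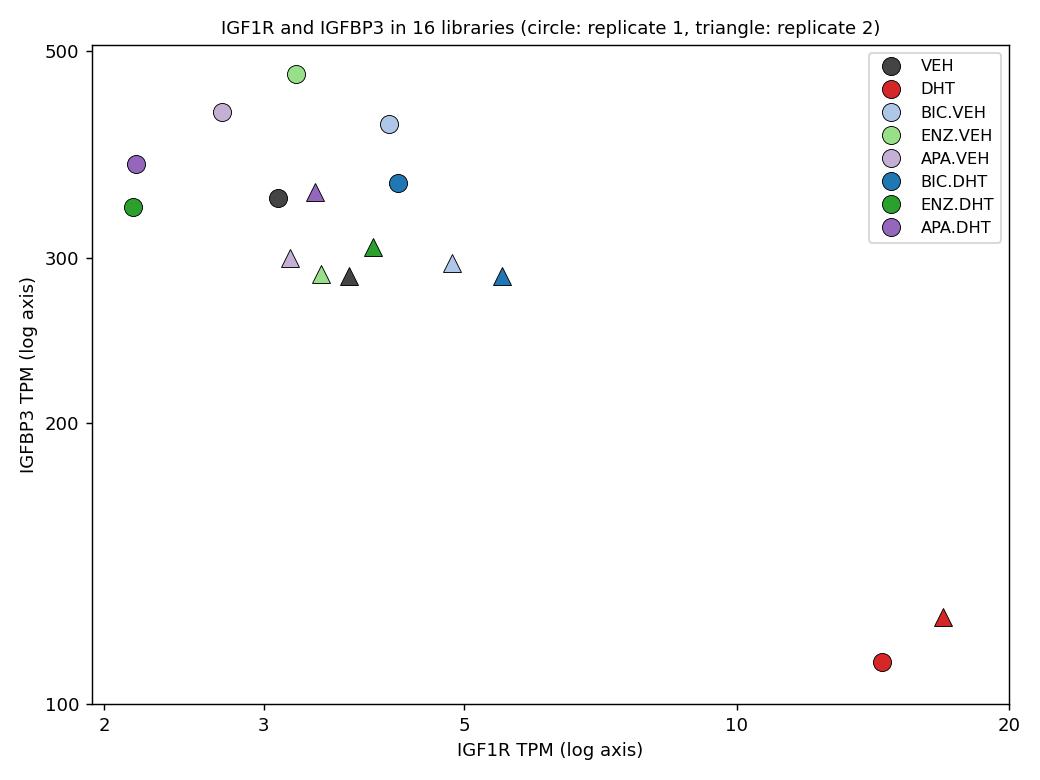
IGF1R against IGFBP3 in TPM in each of the 16 libraries, on log axes, with circles for replicate 1 and triangles for replicate 2, coloured by group. The 2 DHT libraries lie alone at high IGF1R (14.5 and 16.9) and low IGFBP3 (111 and 124), and the other 14 have IGF1R of at most 5.50 and IGFBP3 of at least 287.

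IGFBP3 made up most of the carrier RNA. Of the summed TPM of IGFBP1 to IGFBP6, it held 80.9% and 77.9% in VEH and 68.2% and 63.1% in DHT, the lowest shares of all libraries. The sum itself was 430.2 and 369 TPM in VEH and 163 and 197 TPM in DHT. IGFBP5 stood at 0.59 and 0.20 TPM in VEH and at 0.10 and 0 TPM in DHT, too low to be tested.

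ERBB2, the ligandless partner of the family, is at GRCh38.p14 chr17:39688094-39728658 and overlaps MIEN1, which stood at 173 to 283 TPM. ERBB2 stood at 165 and 135 TPM in VEH and at 106 and 83.0 TPM in DHT, and these do not overlap. The mean was 150.2 ± 21.0 TPM in VEH and 94.7 ± 16.6 TPM in DHT (SD, n = 2 each). The log2 difference was -0.66 (SE 0.21, limma adjusted p = 0.0678), which is outside the threshold. With the replicate number as a block it was inside it (adjusted p = 0.0328), in a fit that called 27.4% of tested genes. With the block, 3 of 7 members were thus called. ERBB2 was also called without replicate 1 of ENZ.DHT and APA.DHT, in a fit that called 2631 of 16636 tested genes between DHT and VEH.

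ERBB2 with DHT and an antagonist was 136 and 123 TPM in BIC.DHT, 96.6 and 135 TPM in ENZ.DHT, and 97.1 and 139 TPM in APA.DHT. The 2 libraries that stood apart fell within the range of the DHT libraries and their replicates did not. The differences from DHT were 0.46, 0.28 and 0.30 on the log2 scale, and none was called (adjusted p = 0.330, 0.413 and 0.394). By replicate number, the fold of ERBB2 over DHT in replicate 1 was 0.908 in ENZ.DHT and 0.913 in APA.DHT. In replicate 2 it was 1.63 and 1.67, so the differences of these 2 groups combine opposite directions.

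EGFR, the receptor for EGF and TGFA, is at GRCh38.p14 chr7:55019017-55211628. It stood at 8.05 and 9.11 TPM in VEH and at 10.3 and 13.5 TPM in DHT, a log2 difference of 0.42 (SE 0.29, adjusted p = 0.395) that was not called. With an antagonist it was 8.79 and 10.3 TPM in BIC.DHT, 4.75 and 8.59 TPM in ENZ.DHT and 4.86 and 9.82 TPM in APA.DHT. The differences from DHT were -0.28, -0.79 and -0.69 (adjusted p = 0.725, 0.112 and 0.169). With the replicate block, EGFR was called lower with enzalutamide (adjusted p = 0.0130, 29.2% of tested genes called) and apalutamide (adjusted p = 0.0258, 27.3% called). For bicalutamide the block called 13.3% of tested genes and no further member. Without replicate 1 of the 2 groups the differences shrank to -0.42 and -0.24 (adjusted p = 0.237 and 0.476), and without replicate 2 of each they grew to -1.16 and -1.13 (adjusted p = 0.0409 and 0.0361).

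ERBB3, the partner that recruits PI3 kinase, is at GRCh38.p14 chr12:56080108-56103505 and stood at 143 and 134 TPM in VEH and at 119 and 122 TPM in DHT. The log2 difference was -0.20 (SE 0.15, adjusted p = 0.424), with a 95% interval from -0.53 to 0.12. ERBB3 held between 45.3% and 55.7% of the ERBB receptor TPM in each library, the highest share in DHT replicate 2, while ERBB2 held 38.0% to 52.1% and EGFR 2.35% to 6.17%. ERBB2 exceeded ERBB3 in VEH, by a ratio of 1.15 and 1.01, and was below it in DHT, at 0.897 and 0.682. ERBB3 ran from 127 to 132 TPM in BIC.DHT, and it was 101 and 130.3 TPM in ENZ.DHT and 102 and 132 TPM in APA.DHT. Its differences from DHT were 0.11, -0.07 and -0.05 (adjusted p = 0.814, 0.802 and 0.865), and those of the last 2 groups turned to 0.12 and 0.13 without their replicate 1. For the ratio of ERBB2 to ERBB3, BIC.VEH replicate 2, BIC.DHT replicate 2, ENZ.DHT replicate 1 and APA.DHT replicate 1 also had ratios under 1.

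The IRS adaptors, which link IGF1R and INSR to PI3 kinase, were low. IRS1 reached 1 TPM in 6 of 16 libraries. It stood at 1.26 and 0.85 TPM in VEH and at 1.44 and 0.65 TPM in DHT, with a log2 difference of -0.03 (SE 0.32, adjusted p = 0.976). IRS1 was higher in replicate 1 in 8 of 8 groups. IRS2 stood at 0.35 and 0.30 TPM in VEH and at 0.58 and 0.68 TPM in DHT, and the other 12 libraries ran up to 0.44 TPM. IRS2 was below the filter, so it was not tested in the main comparison. With no filter it was called between DHT and VEH, and between DHT and either BIC.DHT or APA.DHT, at levels under 1 TPM. That fit called 1614, 561 and 1256 of 34203 genes in these comparisons, and it did not call IRS2 between DHT and ENZ.DHT.

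**Figure D3:**
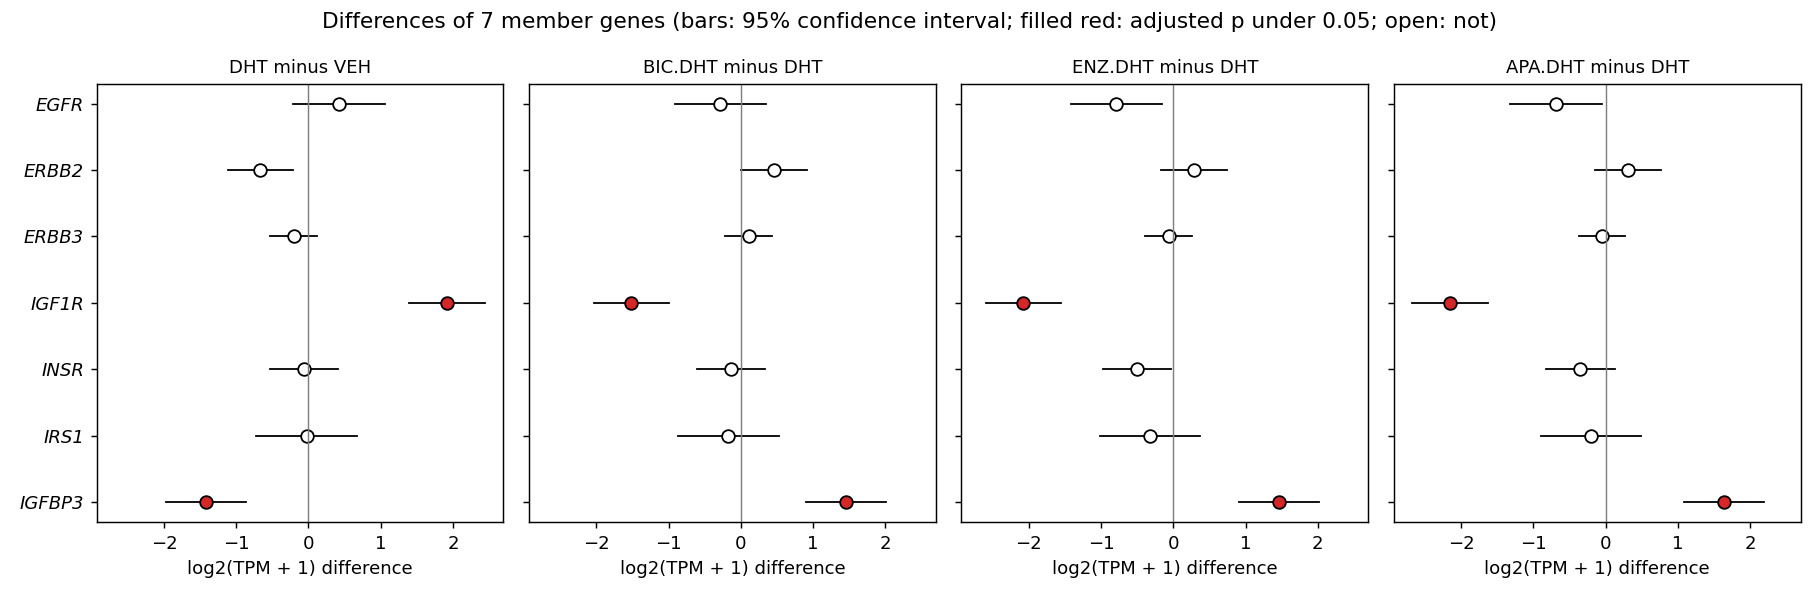
Log2(TPM + 1) differences of the 7 tested members in 4 comparisons, with 95% confidence intervals, filled where the adjusted p was under 0.05. IGF1R lies at 1.92 and IGFBP3 at -1.42 for DHT minus VEH, with signs turned in the other 3 panels, and no other member is filled. All panels use the same DHT libraries.

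DHT had no called effect on any member in the presence of an antagonist. The mean of the control gene KLK3 was still higher with DHT than without. It was 644.6 against 281.9 TPM with bicalutamide, 205.3 against 72.2 with enzalutamide and 215.1 against 25.4 with apalutamide. limma called none of these, and with the replicate block it called the apalutamide one (adjusted p = 0.0179). For IGF1R the difference between DHT and solvent was 0.09 with bicalutamide, -0.14 with enzalutamide and -0.08 with apalutamide, with 95% intervals from -0.43 to 0.61, -0.66 to 0.38 and -0.60 to 0.44. For IGFBP3 it was -0.13, -0.19 and 0.02, with intervals from -0.68 to 0.43, -0.74 to 0.37 and -0.53 to 0.58. limma called 0%, 0.00601% and 0.00601% of tested genes in these 3 comparisons, and of 7 members 0 were called and 0 had an unadjusted p under 0.05. Over all genes 234, 541 and 408 had one, which is 1.41%, 3.25% and 2.45%. These shares are below the 0.05 threshold itself, so a missing call here is weak evidence of no effect. With the replicate block 0, 1 and 4 genes were called, and 0 members.

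The difference between the DHT effects was itself tested, as the interaction of each antagonist with DHT. For IGF1R it was -1.83 with bicalutamide (SE 0.34, limma adjusted p = 0.0296), -2.06 with enzalutamide (SE 0.34, adjusted p = 0.0111) and -1.99 with apalutamide (SE 0.34, adjusted p = 0.0155). These were called, against 0.986%, 1.63% and 1.42% of tested genes. The bicalutamide call was lost when any 1 of its 8 libraries was left out (adjusted p from 0.0707 to 0.143). The enzalutamide call was lost without VEH replicate 1 or DHT replicate 2 (highest adjusted p 0.0558), and the apalutamide call held in 2 of 8 such fits, those without DHT replicate 1 or APA.DHT replicate 2 (highest adjusted p 0.0780). For IGFBP3 the interactions were 1.30, 1.24 and 1.45 and not called (adjusted p = 0.138, 0.135 and 0.0876). With the replicate block they were called (adjusted p = 0.0102, 0.00942 and 0.00456), where 6.39%, 9.91% and 10.1% of tested genes were. No other member was called in an interaction.

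**Figure D4:**
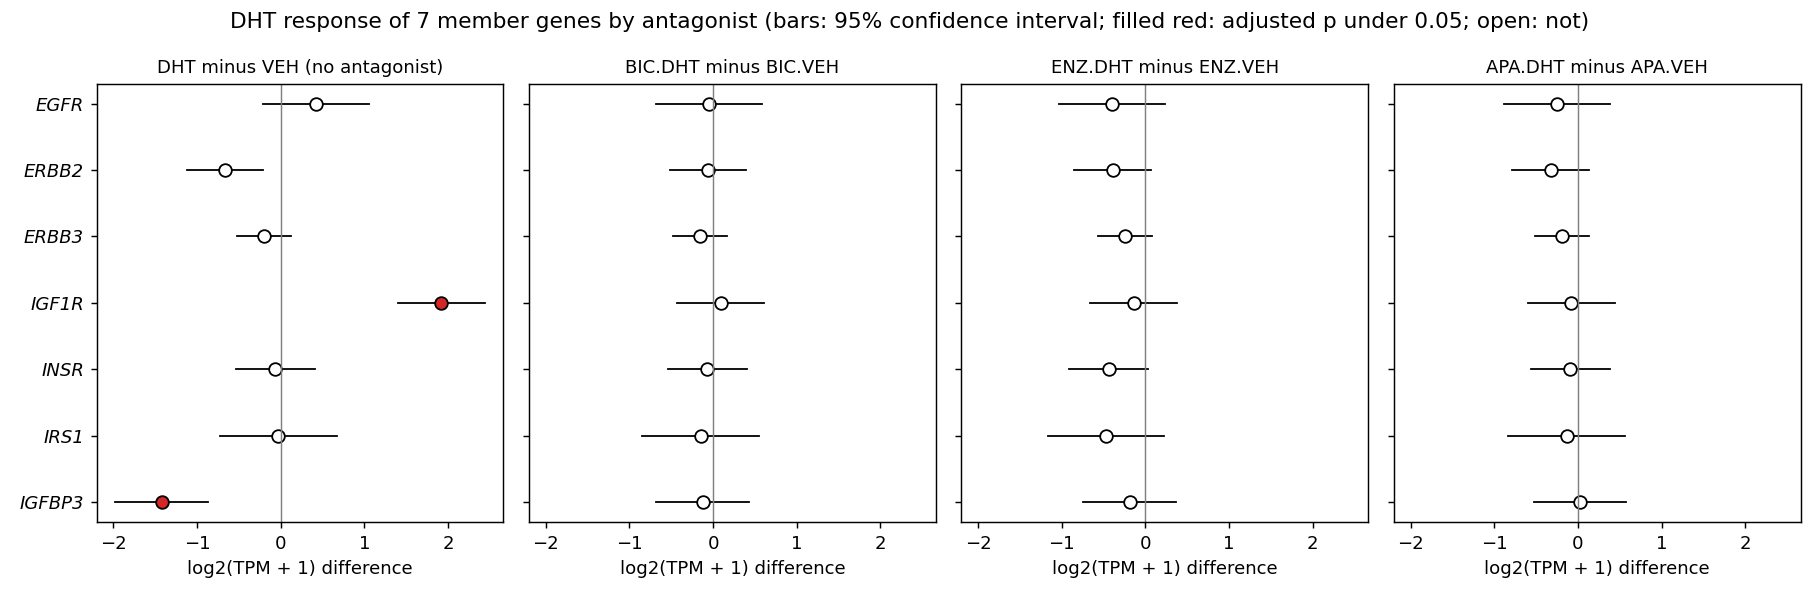
DHT effect on the 7 tested members as log2(TPM + 1) differences, without antagonist and with each of 3, with 95% confidence intervals, filled where the adjusted p was under 0.05. The filled points, IGF1R at 1.92 and IGFBP3 at -1.42, occur without antagonist, and the other 3 panels have none.

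In the absence of DHT the antagonists changed no member by a call. The control gene KLK3 had a mean of 281.9 TPM in BIC.VEH, 72.2 in ENZ.VEH and 25.4 in APA.VEH, against 38.5 in VEH. limma called none of these, and with the replicate block it called the bicalutamide rise of KLK3 (adjusted p = 0.0345). IGF1R stood at 4.13 and 4.84 TPM in BIC.VEH, 3.26 and 3.47 in ENZ.VEH and 2.70 and 3.21 in APA.VEH, against 3.11 and 3.73 in VEH. IGFBP3 stood at 417 and 297 TPM in BIC.VEH, 472 and 288 in ENZ.VEH and 430.1 and 301 in APA.VEH. The log2 difference of IGF1R from VEH was 0.31 with bicalutamide (95% interval -0.21 to 0.83), -0.01 with enzalutamide (-0.54 to 0.51) and -0.16 with apalutamide (-0.68 to 0.36). ERBB2 ran from 125 to 157 TPM, ERBB3 from 128 to 147 TPM, EGFR from 7.88 to 10.2 TPM, INSR from 5.56 to 8.13 TPM and IRS1 from 0.60 to 1.85 TPM in these 6 libraries. limma called 0%, 0% and 0.00601% of tested genes, 194, 139 and 151 had an unadjusted p under 0.05, and of 7 members 0 were among either. The counts under 0.05 are 1.17%, 0.836% and 0.908% of genes, so a missing call here is weak evidence of no effect.

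The antagonists were compared with each other at the same 10 µM dose and 48 h time, in 3 pairs with DHT and 3 pairs without. All 3 are nonsteroidal, and enzalutamide and apalutamide share a thiohydantoin core that bicalutamide lacks. IGF1R with DHT was lower by 0.56 with enzalutamide than with bicalutamide (95% interval of the log2 difference -1.08 to -0.04, adjusted p = 0.930) and by 0.64 with apalutamide (-1.16 to -0.12, adjusted p = 1.00). Their unadjusted p-values in limma were 0.0376 and 0.0208, and no member passed after adjustment. Between apalutamide and enzalutamide it differed by -0.08 (-0.60 to 0.44). IGFBP3 differed by 0.01 (-0.55 to 0.56), 0.18 (-0.37 to 0.74) and 0.17 (-0.38 to 0.73) in the same order of pairs. Across all genes 0.00601%, 0% and 0.00601% were called with DHT, and 565, 483 and 102 had an unadjusted p under 0.05. Without DHT 0%, 0.012% and 0.00601% were called, 297, 262 and 272 had an unadjusted p under 0.05, and 0 of 7 members did. The counts under 0.05 are 3.4%, 2.9% and 0.613% of genes with DHT and 1.79%, 1.57% and 1.64% without. A missing call here is therefore weak evidence of no difference.

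Other genes of the same pathways came from 4 lists of 70 genes, of which 53 were tested. Between DHT and VEH, 4 were called higher and 3 lower, 13.2% of the 53 against 10.3% of all genes. Their median log2 difference was -0.03. By list, 2 of 5 ERBB ligands, 1 of 5 IGF ligands and carriers, 1 of 22 adaptors and downstream kinases, and 3 of 21 negative regulators were called. With the replicate block, 12 were called, 4 higher and 8 lower, which is 22.6% against 27.4% of all genes. Of the 53, IGF1 alone passed the filter through the DHT libraries, so its call is no evidence of a difference. It is 1 of the 7 and the only call among the IGF ligands and carriers. When any 1 of the 4 libraries was left out, NRG4, GRB10 and INPP4B were called in every such fit, NRG3 only without VEH replicate 1 (adjusted p from 0.0360 to 0.105), and SOS2 and SOCS2 in none (lowest adjusted p 0.0966 and 0.0859).

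Among ligands, NRG4, a neuregulin that binds ERBB4, stood at 0.43 and 0.51 TPM in VEH and at 2.42 and 2.23 TPM in DHT. It rose by 1.18 on the log2 scale (SE 0.20, adjusted p = 0.00424). NRG3, another ligand of ERBB4, stood at 2.25 and 3.60 TPM in VEH and at 0.40 and 0.53 TPM in DHT and fell by 1.40 (SE 0.30, adjusted p = 0.0136). ERBB4 itself was below 0.4 TPM throughout. IGF1, the ligand of IGF1R, stood at 0.18 and 0.62 TPM in VEH and at 1.77 and 2.47 TPM in DHT, and reached 1 TPM in 1 of the other 14 libraries. HBEGF, the ERBB ligand with the highest mean over all 16 libraries, ran from 3.49 to 9.13 TPM and was not called. It was not the highest in every group: EGF stood at 6.24 and 5.77 TPM in DHT, slightly above HBEGF on average.

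The clearance receptor IGF2R, which takes IGF2 to the lysosome, stood at 111 and 106 TPM in VEH and at 148 and 134 TPM in DHT. Its log2 difference was 0.37 (SE 0.25, adjusted p = 0.377), not called. SOS2, an exchange factor that activates RAS, stood at 13.7 and 13.1 TPM in VEH and at 7.19 and 6.88 TPM in DHT and fell by 0.84 (SE 0.21, adjusted p = 0.0259). AKT2, a kinase below PI3 kinase and the most abundant gene of the adaptor list, ran from 119 to 212 TPM and was not called.

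GRB10, an adaptor that binds IGF1R and INSR and dampens their signal, had the largest log2 difference of the 53 in this comparison. It stood at 344 and 352 TPM in VEH and at 81.9 and 67.5 TPM in DHT, 4.66-fold lower, and the other 12 libraries ran from 226 to 346 TPM. It fell by 2.21 (SE 0.18, limma adjusted p = 3.46e-05). With an antagonist and DHT, GRB10 stood at 248 and 232 TPM in BIC.DHT, 232 and 314 in ENZ.DHT and 226 and 323 in APA.DHT. It rose from DHT by 1.68, 1.85 and 1.85 (adjusted p = 0.000621, 0.000166 and 0.000173).

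INPP4B, a lipid phosphatase that opposes PI3 kinase, stood at 0.41 and 0.81 TPM in VEH and at 3.64 and 6.31 TPM in DHT. It rose by 1.87 (SE 0.29, adjusted p = 0.00211). SOCS2, a cytokine-signalling suppressor, stood at 3.51 and 4.10 TPM in VEH and at 6.40 and 7.55 TPM in DHT and rose by 0.73 (SE 0.20, adjusted p = 0.0374). One BIC.VEH library had SOCS2 at 6.31 TPM, close to the DHT level. INPPL1, another lipid phosphatase, stood at 130.3 and 112 TPM in VEH and at 86.6 and 80.4 TPM in DHT, and was called with the block alone (adjusted p = 0.0823 without it and 0.00158 with it).

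With the antagonists, 4, 7 and 6 of the 53 genes were called against DHT for bicalutamide, enzalutamide and apalutamide, 7.55%, 13.2% and 11.3%, beside 3.13%, 9.65% and 8.36% of all genes. With the block the counts were 7, 14 and 17, or 13.2%, 26.4% and 32.1%, beside 13.3%, 29.2% and 27.3% of all genes. IGF1, which passed the filter through the DHT libraries alone, was 1 of the 7 for enzalutamide (log2 difference -1.09). With the block it was called for enzalutamide and apalutamide. Its fall from DHT was built in by the filter, so these calls are no evidence of a difference. No count is given without replicate 1 of ENZ.DHT and APA.DHT, a fit that leaves 1 library in each antagonist arm. The genes called between DHT and VEH were picked through the same 2 DHT libraries used here. Opposite directions are therefore partly built in. NRG3, NRG4, GRB10 and INPP4B were called against DHT with each antagonist, in the direction opposite to the DHT effect. Of these, GRB10 was called whichever library was left out. For bicalutamide, NRG3, NRG4 and INPP4B were lost whichever library was left out (lowest adjusted p 0.136, 0.0654 and 0.0524). For enzalutamide, NRG3 and NRG4 held in 1 and INPP4B in 2 of 4 such fits, and for apalutamide NRG3 held in 1, NRG4 in 0 and INPP4B in 4 of 4. With only the compared groups fitted, none of the 4 genes was called (adjusted p from 0.0896 to 0.213). SOCS2 fell from its DHT level with enzalutamide (log2 difference -0.93, adjusted p = 0.0140) and apalutamide (-0.87, adjusted p = 0.0203), and its calls held in 2 and 0 of 4 fits with a library left out. Outside the genes called with DHT, MAP2K1, the kinase MEK1, fell with enzalutamide (-0.63, adjusted p = 0.0406) and LRIG1, which promotes receptor turnover, with apalutamide (-0.84, adjusted p = 0.0467). MAP2K1 and LRIG1 were named after their values were seen.

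**Figure D5:**
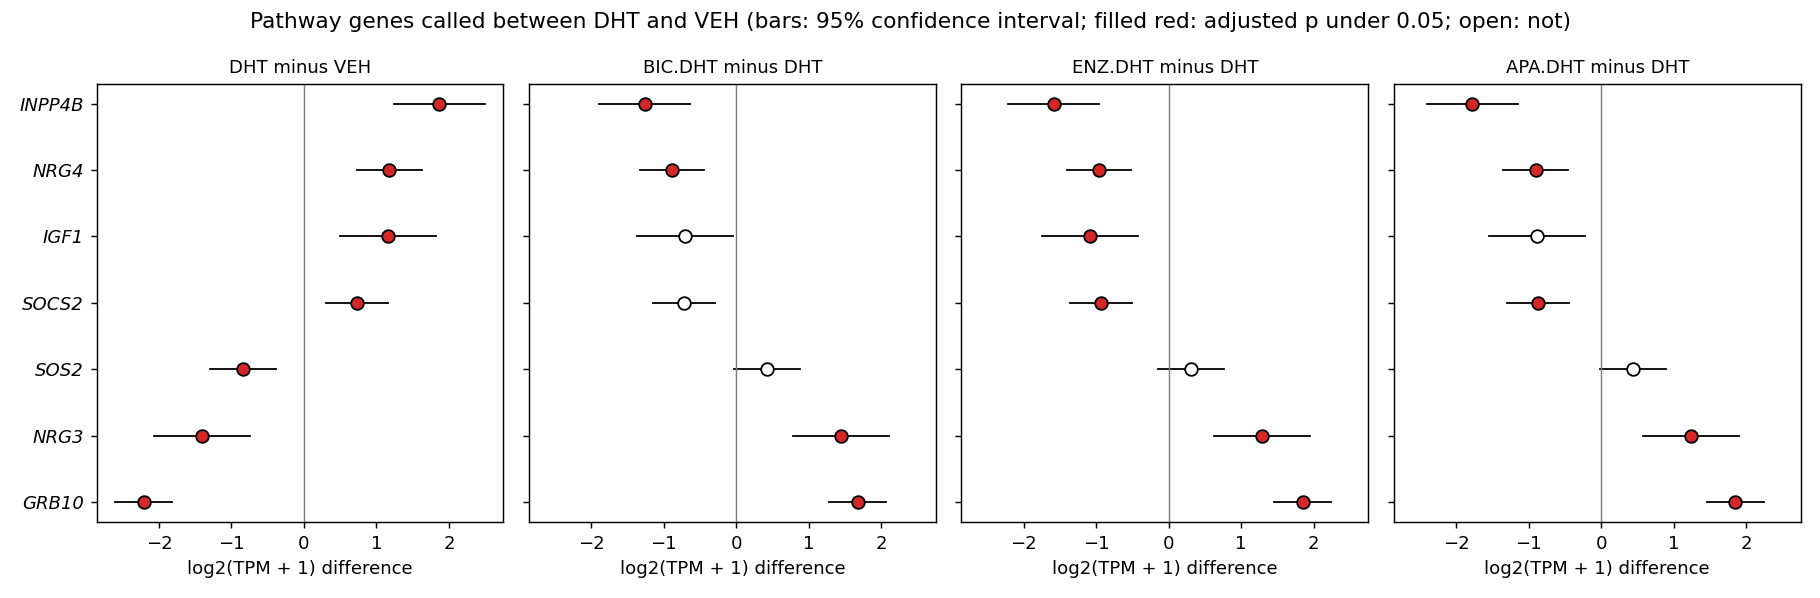
Log2(TPM + 1) differences of the 7 pathway genes called between DHT and VEH, in 4 comparisons, with 95% confidence intervals, filled where the adjusted p was under 0.05. INPP4B (1.87) and GRB10 (-2.21) are the extremes of the first panel, and every point of the other 3 panels lies on the opposite side of 0. The genes were chosen by the first panel and all panels use the same DHT libraries, so opposite sides are partly built in. IGF1 passed the filter through the DHT libraries alone, so its points are no evidence of a difference.

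Markers of dividing cells moved with DHT as well. Their summed TPM was 113 and 280 in VEH and 308 and 632 in DHT, and 8 of 8 were higher with DHT with a median log2 difference of 1.28. In limma 0 of 8 were called and 0 had an unadjusted p under 0.05, while 7 were called with the block. Against DHT, 0 of 8 were higher with any antagonist, with median log2 differences of -0.55 for bicalutamide, -1.43 for enzalutamide and -1.31 for apalutamide. With the block, 2, 8 and 8 of 8 were called lower. Without the block limma called 0 in each comparison, and 0, 1 and 0 had an unadjusted p under 0.05. The sums were 210 and 411 TPM in BIC.DHT, 99.8 and 278.5 TPM in ENZ.DHT and 113 and 283 TPM in APA.DHT. Replicate 2 had the higher sum in every group, as it had the higher IGF1R and EGFR in 8 of 8 groups. COL1A1 was lower in DHT, at 11.4 and 15.6 TPM against 32.6 and 25.9 in VEH. Whether these differences had a part in the member values was not tested.

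The genes whose group means ran most like IGF1R over the 8 groups were VMP1 (Pearson r = 0.998), GREB1 (0.997) and SORD (0.996), of 11063 genes with a mean TPM of at least 5. SORD stood at 246 and 237 TPM in VEH and at 782 and 811 TPM in DHT, and GREB1, an androgen- and estrogen-responsive gene, at 4.28 and 4.70 TPM and at 20.2 and 21.9 TPM. For IGFBP3 they were EGLN3 (0.996), HOXC13-AS (0.992) and HOXA11-AS (0.992). EGLN3, an oxygen-dependent prolyl hydroxylase, stood at 69.5 and 45.1 TPM in VEH and at 17.9 and 11.3 TPM in DHT. The 8 points share 16 libraries, and in both sets the DHT group lies far from the rest, so the values of r rest mainly on it.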

How the data were processed

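LNCaP RNA was sequenced as polyadenylated, stranded libraries with 125 bp paired reads, about 40 M pairs per library by the labels. The authors aligned trimmed reads to GRCh38 and estimated expression with RSEM, and the values they deposited are TPM per gene symbol, 1 column per library. The submitters' processing notes name FastQC 0.11.9, Trim Galore 0.6.5, STAR 2.7.2b and RSEM 1.3.3. TPM keeps no depth, so no counting interval is given. TPM is relative, so a rise of abundant transcripts lowers the rest. No column held other samples (0).

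Groups and replicate numbers came from the labels. Of 60642 symbols, the 16636 that reached 1 TPM in 2 or more libraries were tested with limma 3.58.1 (R 4.3.3) on log2(TPM + 1), with 8 group means, the trend option and all 16 libraries sharing 1 estimate of the spread. Genes were called at a Benjamini-Hochberg adjusted p-value under 0.05. The script was tested on simulated data with independent libraries, so that test does not cover the pairing of replicates described next. Deviations of same-numbered replicates from their group means correlated in 28 of 28 group pairs (lowest r 0.204, median 0.427, highest 0.635), so the numbers pair the libraries. A fit with a replicate block was run beside the main one, which leaves the pairing out. Between DHT and VEH, the SE in the main fit and with the block was 0.237 and 0.148 for IGF1R, and 0.2525 and 0.169 for IGFBP3. It was 0.2075 and 0.203 for ERBB2, and 0.806 and 0.134 for CCNA2, a marker of dividing cells. Missing calls in the main fit are read with this limit. Other alternatives were a pseudocount of 0.1, no filter, median-ratio scaling, only the compared groups, and leaving out each library. A fit without ENZ.DHT and APA.DHT replicate 1 was added after seeing the data.

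The members and lists were chosen with earlier results of these data known. Named genes were the members, list genes called between DHT and VEH, the most abundant gene of each list beyond those, KLK3, FKBP5 and the 3 genes most like each called member. Positions and promoters are from RefSeq (GRCh38.p14). RSEM shares reads between similar genes by a model, so overlapping or related genes are uncertain. Python 3.11.15 and matplotlib drew the figures.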

Additional observations from a re-analysis of the deposited data

Results flagged for a closer look

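The DHT effect on IGF1R differed between cells with and without an antagonist, by limma's test of the interaction over all 16 libraries. The interaction was -1.83 on the log2 scale with bicalutamide (adjusted p = 0.0296), -2.06 with enzalutamide (adjusted p = 0.0111) and -1.99 with apalutamide (adjusted p = 0.0155). The 3 tests share the 4 libraries of VEH and DHT. IGF1R was 4.59-fold higher with DHT without an antagonist, and with each antagonist the DHT and solvent libraries overlapped.
The bicalutamide call was lost when any 1 of its 8 libraries was left out (adjusted p from 0.0707 to 0.143) and with no filter (adjusted p = 0.0566). With only the compared groups, the enzalutamide and apalutamide calls were lost (adjusted p = 0.0953 and 0.0754), and with 1 library left out they held in 6 and 2 of 8 fits.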

How the results depend on the processing

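IGF1R kept its direction in every alternative, and so did IGFBP3. Between DHT and VEH, 3 members were called with no filter, where IRS2 was added to these. With the replicate block 3 were called, and 3 without the 2 libraries that stood apart, where ERBB2 was added. Between DHT and VEH the count of called members was 2, with a range from 1 to 2 when 1 library was left out, and IGFBP3 was lost without VEH replicate 1 (adjusted p = 0.0541). The pathway count of 7 became 12 with the replicate block, 1 with only the compared groups, 13 without the 2 libraries that stood apart, and 3 to 4 with 1 library left out. For bicalutamide against DHT, members fell from 2 to 0 with only the compared groups and to 0 to 1 with a library left out. Its pathway count of 4 was 2 with a pseudocount of 0.1, 2 with no filter, 7 with the block, 0 with only the compared groups and 1 with each library left out. For enzalutamide and apalutamide, members fell from 2 to 0 with only the compared groups, and pathway counts of 7 and 6 became 14 and 17 with the block, 0 and 0 with only the compared groups, and 1 to 5 and 2 to 6 with a library left out. In the interactions the member count of 1 became 2 with the block for each antagonist. It became 0 with no filter for bicalutamide and 0 with only the compared groups for enzalutamide and apalutamide. With a library left out it was 0 for bicalutamide and 0 to 1 for the others. The block changed no other member call than those of ERBB2, EGFR and IGFBP3 given in the report. Over all genes, DHT against VEH called 1709 of 16636 in the main fit, 4559 with the block and 173 with only the compared groups. It called 2631 without the 2 libraries that stood apart and 1614 of 34203 with no filter, so the pathway counts moved with the count over all genes. Bicalutamide against DHT called 504 of 16636 with a pseudocount of 0.1 and 561 of 34203 with no filter. It called 2216 with the block and 0 with only the compared groups. For enzalutamide and apalutamide against DHT, 4863 and 4545 genes were called with the block, and 7 and 0 with only the compared groups.

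Signs turned only in differences that were not called. Median-ratio scaling, which moved the median of all genes between DHT and VEH from -0.098 to 0, gave 0.041 for INSR and 0.039 for IRS1. IRS1 ran from -0.31 to 0.26 (DHT against VEH), -0.47 to 0.12 (bicalutamide) and -0.49 to 0.079 (apalutamide) with a library left out. ERBB3 with enzalutamide and apalutamide was 0.12 and 0.13 without the 2 libraries that stood apart, and ran from -0.25 to 0.12 and -0.23 to 0.13 with a library left out. The causes were not tested.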
